A study of Mus musculus with 24 samples.

Results

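Retinoic acid response genes were followed here through 9 members of the pathway, Rara, Rarb, Rarg, Cyp26a1, Cyp26b1, Crabp1, Crabp2, Stra6 and Dhrs3. They were chosen by name for their place in retinoid signalling, with earlier results of these data known. All 9 were found among the 51912 genes of the mouse count tables. RNA sequencing had been done on 3 libraries each of embryonic stem cells (ESCs), neuronal progenitors (NPs) and TET TKO ESCs. The ESCs were the wild-type line TC-1 of C57BL/6 X 129S5 background, grown on gelatin with LIF, the cytokine that keeps mouse ESCs from differentiating. NPs were made from that line, which was grown as cellular aggregates without LIF and given retinoic acid during the later part of the differentiation, up to collection. TET TKO ESCs carry a triple knockout of TET1, TET2 and TET3, the enzymes that oxidise methylated cytosine, and belong to another line, of C57BL/6 X 129/sv background. The study used the RNA libraries to know which factors its ESCs, NPs and TET TKO ESCs express. It also set the expression differences of the factors between ESCs and NPs against methylation changes at their motifs. Its TET TKO cells served to ask which DNA demethylation needs TET enzymes. The libraries are called biological replicates by the study, but separate cultures are not described, so the p-values measure the spread between these libraries.

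All-trans retinoic acid is made in cells from vitamin A. STRA6 takes up retinol from its carrier in blood, retinol is oxidised to retinal and then to retinoic acid, and DHRS3 reduces retinal back to retinol. CRABP1 and CRABP2 bind retinoic acid in the cytoplasm, CRABP2 handing it to the receptors in the nucleus. The receptors RARα, RARβ and RARγ (genes Rara, Rarb and Rarg) bind DNA together with an RXR partner and switch on target genes when they hold the ligand, and the enzymes CYP26A1 and CYP26B1 break the ligand down. Several genes of this system are themselves known targets of the receptors, and in the embryo retinoic acid patterns the hindbrain and spinal cord through Hox genes.

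Total counts per library ran from 20519702 to 23976914 in ESCs and NPs and from 80704741 to 93210102 in TET TKO ESCs. In the comparison of TET TKO ESCs with ESCs, genotype, cell line and background cannot be told apart, and depth differs as well. Between NPs and ESCs, retinoic acid, the absence of LIF, growth as aggregates and cell type cannot be told apart either. As a check of the knockout label, Tet1 was at 60.8 to 68.5 RPKM (reads per kilobase of exon, scaled to the size of the library) in ESCs and 11.3 to 16.1 in TET TKO ESCs, and Tet2 at 16.1 to 20.5 and 2.32 to 2.70. Both were called lower, so transcript was reduced but still counted, and Tet3 was below 1 RPKM in both. The summed level of 7 pluripotent cell markers (Pou5f1, Nanog and others) was 2220 to 2299 RPKM in ESCs, 1987 to 2773 in TET TKO ESCs and 7.94 to 26.7 in NPs, where all 7 fell. The sum in TET TKO ESCs was carried by Dppa5a, at a mean of 1508 RPKM against 956 in ESCs, while the median log2 fold change of the 7 markers was -0.72 and Zfp42 was called lower, at a mean of 50.6 against 304 RPKM. The 7 neural progenitor markers all rose in NPs, from a sum of 63.7 to 71.9 RPKM to 320 to 456. Some markers of other cell types, with 7 listed for each type, were also called higher in NPs. These were 4 of the 7 tested for neurons, 3 of 5 for endoderm, 1 of 3 for mesoderm and 1 of 5 for mesenchyme. In turn 1 neuron and 1 mesoderm marker were called lower. Over all genes tested between NPs and ESCs, 12.4% were called higher and 9.99% lower. No marker was at 0 counts throughout the NP libraries.

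Receptors of retinoic acid bind paired half-sites in DNA, classically direct repeats of AGGTCA-like hexamers. Promoter sequences running from 250 bases before to 50 bases after each transcription start (RefSeq, GRCm38.p6) were searched on both strands for the hexamer AGGTCA, then for AGTTCA, also for GGGTCA and finally for GGTTCA. Of the 9 genes, 8 were in the table, and Crabp2 had no entry. Rarb and Cyp26a1 each held a pair of half-sites in direct repeat with 5 bases between them, a spacing found in 31 of the 27025 genes of the table (0.115%). No member held a direct repeat with a spacing of 1 base (0.263% of genes) or of 2 bases (0.311%). A single half-site stood in the windows of 5 members and of 46.9% of all genes. The stretches of 120 bases ahead of both starts are printed on the strand of the gene, with the direct repeat and its spacer in capitals. The Rarb stretch is chr14:16575477-16575596 on the minus strand and the Cyp26a1 stretch is chr19:37697688-37697807 on the plus strand, both upstream of the annotated transcript.
Rarb: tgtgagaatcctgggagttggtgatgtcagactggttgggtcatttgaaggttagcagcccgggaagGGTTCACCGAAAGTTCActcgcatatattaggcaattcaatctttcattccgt
Cyp26a1: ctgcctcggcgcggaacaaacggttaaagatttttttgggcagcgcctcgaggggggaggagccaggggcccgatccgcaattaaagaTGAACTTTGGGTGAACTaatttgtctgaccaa
The repeat of Rarb ran from base -53 to base -37 counted from the start. That of Cyp26a1 lay on the opposite strand, from base -32 to base -16, so it reads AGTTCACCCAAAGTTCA on the other strand. These matches describe the letters in the window, and binding was not measured.

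**Figure D1:**
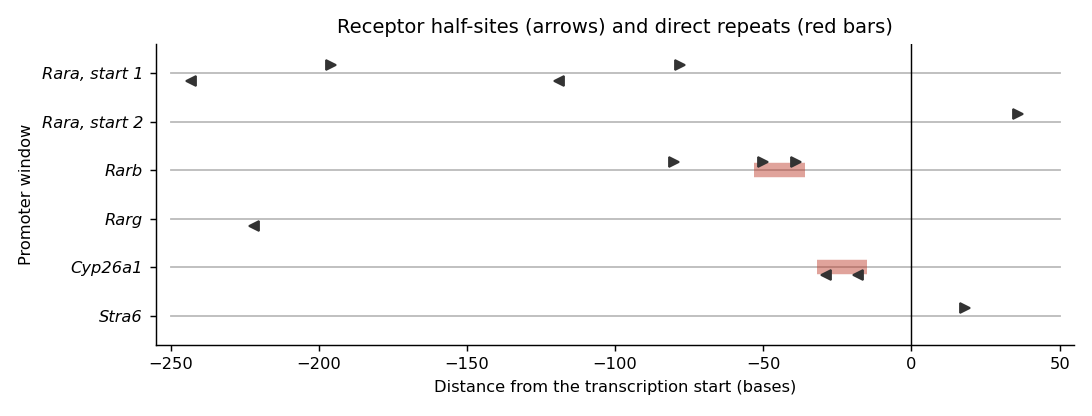
Positions of single half-sites (arrows, pointing along the strand that reads the hexamer from left to right) and of direct repeats with 5 bases between (red bars) in promoter windows of the members, by distance from the transcription start in bases; only windows with a match are drawn. The 2 direct repeats lie within 53 bases of the starts of Rarb and Cyp26a1.

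In NPs, 7 of the 9 genes were higher than in ESCs and 1 was lower. A gene was called when its adjusted p was under 0.001 and its fold change at least 3, the limits of the study, in edgeR's quasi-likelihood test with Benjamini-Hochberg adjustment over the 15020 genes that reached 1 RPKM in some library of the pair. All 9 members passed that filter, though Rarb, Cyp26a1, Cyp26b1, Stra6 and Dhrs3 did so through the NP libraries alone. By the same rule 12.4% of the tested genes were called higher and 9.99% lower. The median log2 fold change was 6.43 over the members and 0.03 over all tested genes. In none of the 9 did the ESC and NP libraries overlap, but how many of all tested genes lacked overlap was not counted. An unadjusted p under 0.05 in the same test was found for all 9 members and for 10169 of the 15020 genes. These are bulk libraries, in which fewer cells of a type and less RNA per cell cannot be told apart.

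**Figure D2:**
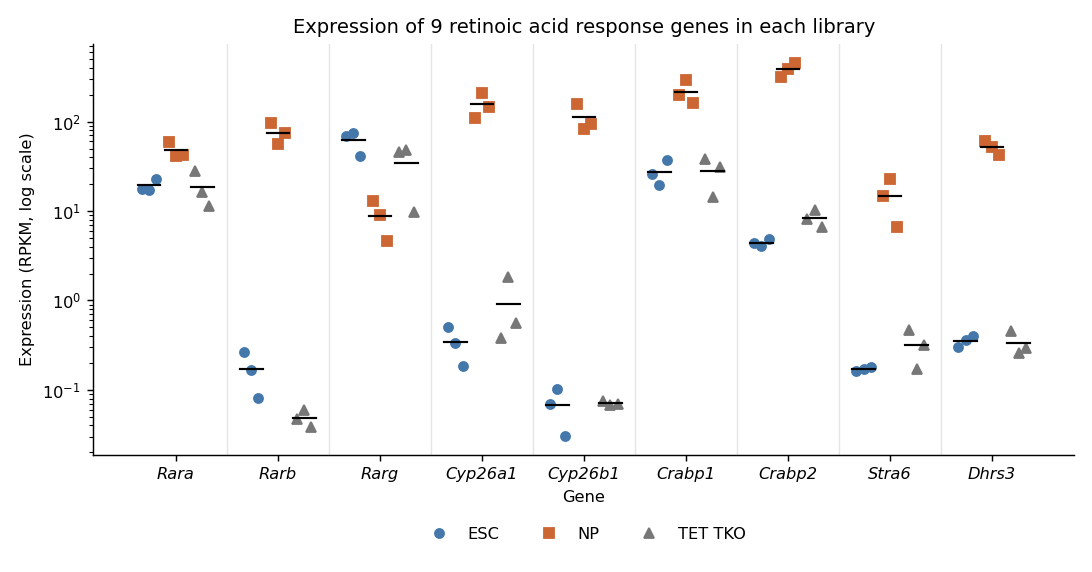
Expression of the 9 genes in each of the 9 libraries (RPKM, log axis), with ESCs as circles, NPs as squares and TET TKO ESCs as triangles; black lines are group means. The NP squares lie apart from the ESC circles for every gene, above them for all but Rarg.

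Among the receptors, Rarb changed most. It was at 0.263, 0.166 and 0.0804 RPKM in the 3 ESC libraries, from 17, 11 and 6 counts, and at 95.5, 55.6 and 74.0 RPKM in the 3 NP libraries. The ESC libraries were all close to the lower end of detection and the NP libraries all far above them. The log2 fold change was 8.79 (SE 0.371; adjusted p = 9.11e-07), or 442-fold. The locus, on chromosome 14 from 16430842 to 16575472 on the minus strand (GRCm38), is that of the receptor whose promoter repeat is printed above.

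Rarg, the receptor gene with the highest level in ESCs, went the other way. It stood at 69.2, 74.2 and 41.7 RPKM in ESCs and at 12.9, 8.94 and 4.63 RPKM in NPs. Every NP library was below every ESC library. The log2 fold change was -2.83 (SE 0.369; adjusted p = 0.000226), which makes the level in NPs 7.10-fold lower. Without NP replicate 2 the adjusted p was 0.0013, and with all 3 groups in the fit it was 0.00115, so the call was lost in both although the log2 fold change stayed at -2.85 and -2.84.

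Rara, the most widely expressed of the receptors, was at 17.7, 17.3 and 23.1 RPKM in ESCs and at 59.6, 41.4 and 42.5 RPKM in NPs. The NP libraries were all above the ESC libraries, and the log2 fold change was 1.29 (SE 0.176; adjusted p = 0.000292). The 2.45-fold difference was under the limit of 3, so Rara was not called, and it would be at a limit of 2.

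Because RPKM is per length, the receptor levels can be added within a library. Rarg made up 79.4%, 80.9% and 64.3% of the receptor RPKM in the ESC libraries and 7.67%, 8.44% and 3.82% in the NP libraries. Rarb went from at most 0.302% of the sum in any ESC library to 56.9%, 52.5% and 61.1% in NPs. Rara made up 20.3%, 18.9% and 35.6% in ESCs and 35.5%, 39.1% and 35.1% in NPs, so its share overlapped between the groups. The sum itself was 81.3 ± 14.4 RPKM in ESCs and 132 ± 32.3 RPKM in NPs (SD, n = 3). Per length, the predominant receptor transcript was Rarg in every ESC library and Rarb in every NP library. Without the division by length, Rara was ahead of Rarb in NP replicate 2, with 46.8% against 43.7% of the receptor counts. The shares were not tested.

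**Figure D3:**
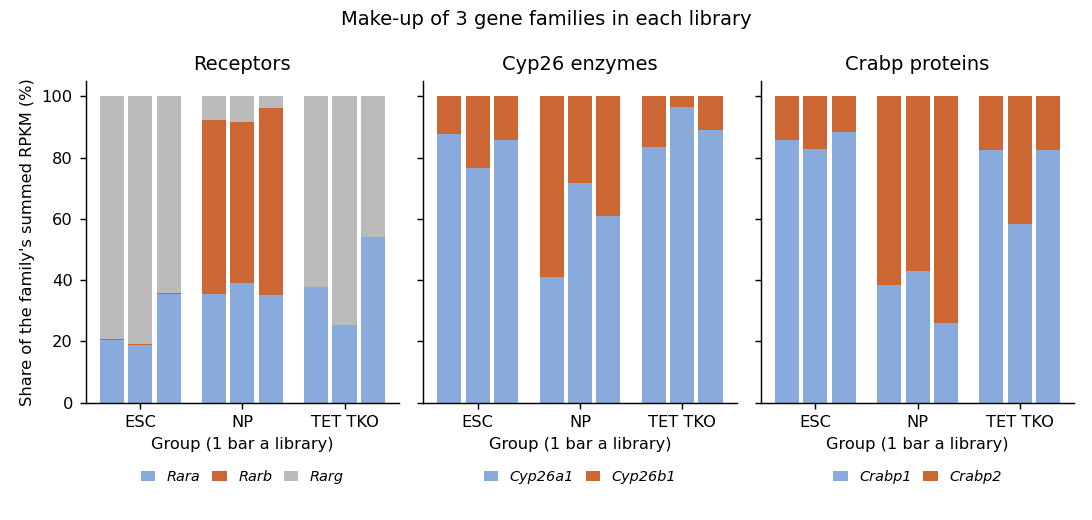
Share of each gene in the summed RPKM of its family (%), with 1 bar for each library, for the receptors, the Cyp26 enzymes and the Crabp proteins. Rarg takes the largest receptor share in the ESC bars and Rarb in the NP bars. Of the Crabp pair, Crabp1 takes the larger share in the ESC bars and Crabp2 in the NP bars.

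Both genes of the enzymes that degrade retinoic acid rose from near the lower end of detection. Cyp26b1 had the largest fold change of the 9 genes. It was at 0.0702, 0.103 and 0.0304 RPKM in ESCs, from 8, 12 and 4 counts, and at 158, 83.6 and 93.9 RPKM in NPs, from 18011, 10873 and 11644 counts. All NP libraries were high, and the log2 fold change was 10.68 (SE 0.428; adjusted p = 7.9e-07).

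Cyp26a1, the other gene with a printed promoter repeat, was at 0.504, 0.336 and 0.184 RPKM in ESCs and at 110, 211 and 146 RPKM in NPs. No libraries of the groups overlapped, and the log2 fold change was 8.83 (SE 0.386; adjusted p = 1.03e-06). Between the NP libraries the enzymes did not keep 1 ratio. Per length, Cyp26b1 was the higher of them in NP replicate 1, where Cyp26a1 made up 41.1% of their summed RPKM. Cyp26a1 was the higher in NP replicates 2 and 3, with 71.6% and 60.9%. Without the division by length, Cyp26b1 was ahead in every NP library, with 81.2%, 54.5% and 66.0% of their counts. Their mean levels in NPs, 156 ± 50.9 RPKM for Cyp26a1 and 112 ± 40.3 RPKM for Cyp26b1 (SD, n = 3), came from libraries that overlapped.

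The cellular binding proteins were both higher in NPs, Crabp2 far more so. Crabp2 was at 4.41, 4.09 and 4.83 RPKM in ESCs and at 314, 388 and 456 RPKM in NPs. The ESC libraries lay close together and the NP libraries all far above, with a log2 fold change of 6.43 (SE 0.197; adjusted p = 3.19e-07). The NP mean of 386 ± 70.9 RPKM (SD, n = 3) was the highest of the 9 genes and above that of 99.9% of the genes with a count in NPs.

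Crabp1 started from a higher level and rose less. It was at 26.2, 19.5 and 37.2 RPKM in ESCs and at 197, 292 and 161 RPKM in NPs. The groups were apart, with a log2 fold change of 2.95 (SE 0.287; adjusted p = 4.59e-05). Crabp2 went from 14.4% ± 2.93 of the pair's summed RPKM in ESCs to 64.2% ± 8.75 in NPs (SD, n = 3). Crabp1 was the more abundant of the pair in every ESC library and Crabp2 in every NP library.

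The genes for retinol uptake and for the reduction of retinal rose as well. Stra6, the membrane receptor for the retinol carrier, was at 0.161, 0.173 and 0.181 RPKM in ESCs and at 14.7, 22.6 and 6.60 RPKM in NPs. It was low in all ESC libraries and varied among the NP libraries, with a log2 fold change of 6.38 (adjusted p = 1.32e-05) whose SE of 0.487 was the largest among the members called higher. The summed level of the 7 mesenchyme markers also differed among NP libraries, at 29.1 to 138 RPKM against 2.43 to 6.59 in ESCs. Like Stra6 and Crabp1, it was highest in NP replicate 2 and lowest in NP replicate 3. The NP sums of the pluripotent cell markers (7.94 to 26.7 RPKM) and of the mesoderm markers (5.87 to 26.3 RPKM) had that order too. Those of the neural progenitor, neuron and endoderm markers did not. Any part of such cells in the levels of Stra6 and Crabp1 was not tested.

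Dhrs3, whose enzyme turns retinal back into retinol and so draws on the substrate for retinoic acid, was at 0.305, 0.360 and 0.403 RPKM in ESCs and at 60.6, 51.9 and 42.4 RPKM in NPs. The NP libraries were all well above the ESC libraries, and the log2 fold change was 7.15 (SE 0.202; adjusted p = 2.84e-07), the smallest adjusted p of the 9.

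Per length, the order of the genes differed between the cell types. In ESCs the order was Rarg at 61.7 ± 17.5 RPKM, Crabp1 at 27.6 ± 8.96, Rara at 19.4 ± 3.21 and Crabp2 at 4.44 ± 0.373 (SD, n = 3), with the other 5 genes below 1 RPKM. Of these neighbours, the libraries of Crabp1 and Rara overlapped. In NPs Crabp2 came first, apart from the rest, and Crabp1 second at 216 ± 67.8 RPKM, followed by Cyp26a1, Cyp26b1, Rarb at a mean of 75.0, Dhrs3 at 51.6 ± 9.11, Rara at 47.9 ± 10.2, Stra6 at 14.7 ± 8.02 and Rarg at 8.82 ± 4.13. From Crabp1 down to Rarg, the libraries of each NP neighbour pair overlapped except for Rara and Stra6. The 9 genes together summed to 108 to 119 RPKM in the ESC libraries and to 1023 to 1154 in the NP libraries. Within NPs, replicate 1 had the highest level of Rara, Rarb, Rarg, Cyp26b1 and Dhrs3, replicate 2 that of Cyp26a1, Crabp1 and Stra6, and replicate 3 that of Crabp2, so no NP library was high for all of them.

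**Figure D4:**
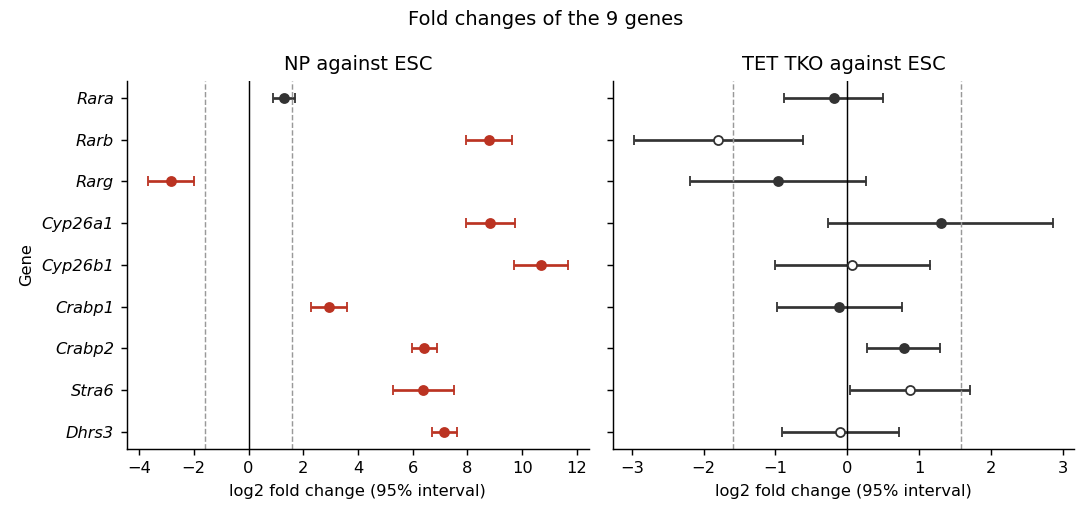
Log2 fold changes of the 9 genes with 95% intervals, NP against ESC on the left and TET TKO against ESC on the right, on different horizontal scales. Red marks calls, open points are genes below the RPKM filter, and dashed lines stand at a 3-fold change; 8 genes are red for NPs and none for TET TKO ESCs.

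In TET TKO ESCs, no member was called. Of the 9 genes 5 reached 1 RPKM in some library of ESCs or TET TKO ESCs and were tested among 14050 genes, of which 0.84% were called higher and 1.31% lower. None of the 5 was called in edgeR, also with the TET TKO counts thinned to the depth of ESCs, or in DESeq2. Of the 5, only Crabp2 had an unadjusted p under 0.05 in edgeR, as did 6322 of the 14050 tested genes. The median log2 fold change of the 5 members was -0.11, against 0.01 over all tested genes.

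Crabp2 was at 8.24, 10.2 and 6.55 RPKM in TET TKO ESCs, above all 3 ESC libraries. The log2 fold change was 0.79 (SE 0.217; 95% interval 0.28 to 1.29), with an adjusted p of 0.0274 that misses the limit. The level was still far below that of any NP library.

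The receptors were less even among the TET TKO libraries. Rarg was at 45.8, 48.1 and 9.68 RPKM, of which replicate 3 stood far below the others, and the groups overlapped. Its log2 fold change was -0.96 (95% interval -2.19 to 0.26; adjusted p = 0.195), -0.52 without replicate 3 and -1.27 without replicate 2. Rara was at 27.8, 16.4 and 11.4 RPKM, on both sides of the ESC libraries, with a log2 fold change of -0.19 (95% interval -0.88 to 0.50). Rarg was the leading receptor transcript in TET TKO replicates 1 and 2, with 62.2% and 74.5% of the receptor RPKM, and Rara led in replicate 3 with 54.0%.

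Cyp26a1 was at 0.380, 1.81 and 0.556 RPKM in TET TKO ESCs and passed the filter through replicate 2. The libraries overlapped with ESCs, and the log2 fold change was 1.30 (95% interval -0.27 to 2.87; adjusted p = 0.174), or 0.35 without replicate 2. Crabp1 was at 38.5, 14.2 and 30.8 RPKM and overlapped with ESCs as well, with a log2 fold change of -0.11 (95% interval -0.98 to 0.76). The intervals of Rara and Crabp1 exclude a 3-fold change in either direction, while those of Rarg and Cyp26a1 each reach past 3-fold on 1 side.

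The other 4 genes were below 1 RPKM in every ESC and TET TKO library. Rarb was at 0.0470, 0.0600 and 0.0382 RPKM in TET TKO ESCs, from 11, 13 and 10 counts, below each ESC library. In a fit without the filter its log2 fold change was -1.80 (SE 0.568; adjusted p = 0.027), from the 6 to 17 counts per ESC library given before. In that fit the values were 0.07 for Cyp26b1, 0.88 for Stra6 and -0.09 for Dhrs3, and none of these genes was called.

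The surrounding pathway was described by lists of 36 other retinoid genes and 18 known retinoic acid targets, which share 1 gene. Of the 36, 24 were tested between NPs and ESCs, 8 were called higher and 2 lower, and the median log2 fold change was 0.70. Over all tested genes the shares were 12.4% and 9.99%, and Aldh1a1, Adh1, Cyp26c1 and Ttr, all called higher, reached the RPKM filter in NP libraries alone. The largest changes among them were in Aldh1a1 and Adh1, whose enzymes oxidise retinal and retinol. Aldh1a1 was at 0 to 0.0687 RPKM in ESCs and 7.08 to 10.5 in NPs (log2 fold change 8.04), and Adh1 at 0.0205 to 0.0546 and 1.26 to 6.58 (6.51).

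Other steps of synthesis and breakdown were mixed. Rdh10, the enzyme for the step from retinol to retinal that DHRS3 reverses, rose from 0.915 to 1.18 RPKM in ESCs to 8.36 to 15.5 in NPs, and Cyp26c1, the remaining degrading enzyme, from 0.0524 to 0.303 to 2.77 to 4.50. The log2 fold changes were 3.34 and 4.72. Aldh1a2, the main retinal oxidising enzyme of the early embryo, was at 1.80 to 3.04 RPKM in ESCs and at 1.77 to 7.31 in NPs, groups that overlapped (log2 fold change 0.79, adjusted p = 0.165). Aldh1a3 was below the filter.

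The RXR partners of the receptors showed no call with the RPKM filter in place. Rxra was at 7.28 to 9.92 RPKM in ESCs and 17.1 to 24.5 in NPs, apart but under the limit of 3-fold (log2 fold change 1.19, adjusted p = 0.000444), and Rxrb at 18.7 to 19.1 and 20.9 to 36.6 (0.52, adjusted p = 0.0377). Rxrg stayed below 1 RPKM and was not tested. In the edgeR fit without the filter it was called lower (log2 fold change -2.30, adjusted p = 0.000454). The genes called lower were Rbp7, another cellular retinol binding protein, with a log2 fold change of -4.37, and Ncoa3, a receptor coactivator, with -1.65. The call of Ncoa3 was lost when library sizes alone were used. Further calls were Ttr, which carries the retinol-binding protein in blood, Fabp5, a binding protein of retinoic acid and fatty acids, and Nrip1, a receptor corepressor, with log2 fold changes of 4.97, 2.55 and 2.31. Ttr rested on 3 counts over the ESC libraries and 108 over the NP libraries, a ratio of 35.4 (95% counting interval 11.8 to 175). With 1 library left out, 7 to 10 of the 24 genes were called. The call of Ttr was lost whichever library was left out, that of Adh1 without any 1 of the ESC libraries and that of Cyp26c1 without ESC replicate 1.

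**Figure D5:**
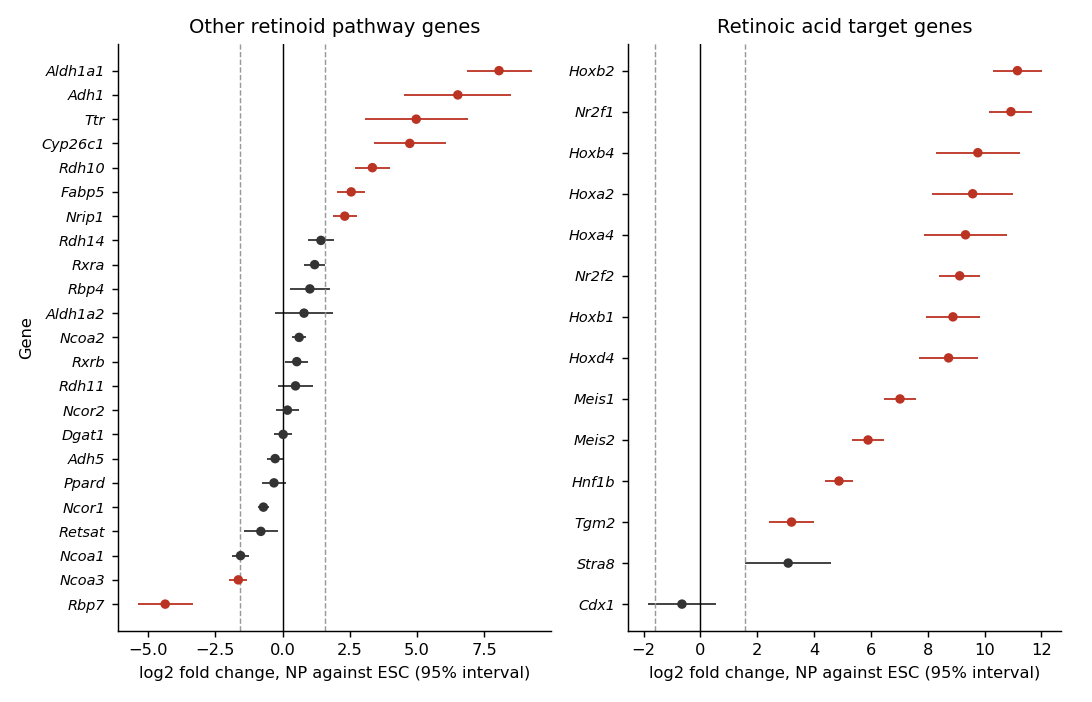
Log2 fold changes, NP against ESC, with 95% intervals for the tested genes of both lists that are reported by name, ordered by size. Red marks calls and dashed lines stand at a 3-fold change; 9 of the 23 pathway genes drawn on the left and 12 of the 14 targets drawn on the right are red.

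Of the 18 target genes 16 were tested, and 14 were called higher in NPs and 0 lower, with a median log2 fold change of 7.88. Over all tested genes 12.4% were called higher and 9.99% lower, and the median was 0.03. In ESCs only 4 of the 18 had a mean of at least 1 RPKM, so most of them reached the filter through the NP libraries. Hoxb1, which lies at the front end of its Hox cluster, went from 0.0175 to 0.0394 RPKM in ESCs to 10.1 to 18.004 in NPs (log2 fold change 8.89). The largest fitted changes were in Hoxb2 (11.16), Nr2f1 (10.93), Hoxb4 (9.76) and Hoxa2 (9.58), Nr2f1 being an orphan nuclear receptor. Hoxb2 and Hoxa2 each had 1 count over all ESC libraries, against 3195 and 1057 over the NP libraries, which are ratios of 3150 (95% counting interval 564 to 124000) and 1040 (186 to 41100). The 2 genes without a call were Stra8, at 15.3, 119 and 33.4 RPKM in NPs against 6.04 to 7.24 in ESCs (adjusted p = 0.00353), and Cdx1, at 0.296 to 1.65 against 1.18 to 1.70. Stra8 was called higher in DESeq2, with no filter on low counts and without NP replicate 1. None of the 10 targets in the promoter table held a direct repeat of the spacings searched.

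In TET TKO ESCs, 0 of the 20 tested pathway genes and 0 of the 4 tested targets were called, with 6 and 2 at an unadjusted p under 0.05. Over all 14050 tested genes, 6322 were at such a p and 302 were called. DESeq2 called 0 and 1, the latter being Cdx1, at 0.152 to 0.590 RPKM in TET TKO ESCs.

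The genes whose log2 levels followed each member most closely over the 9 libraries were named by Pearson's r among 15504 genes. The libraries fall into groups of cell type, so a large r mostly repeats the gap between NPs and ESCs. Rarg was most like Epha2 (r = 0.988) and Tcf15 (0.982), and Rara most like Mast4 (0.983) and Atp5d (0.982). For Rarb, Cyp26b1 and Dhrs3 there were 201, 234 and 202 genes with r of at least 0.99, led by Ppp2r2b and Pcdhb22, by Ambp and Chrna3, and by Lhx1os and Cxcl15. Crabp2 had 70 such genes, led by 1500015A07Rik and Sost, Cyp26a1 had 27, led by Stx18 and Tgfb1i1, and Stra6 had 14, led by 4930426D05Rik and Klhl14. Crabp1 had only Rsph3b above that value, followed by Barx2 (0.984), and Rara and Rarg had none.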

How the data were processed

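RNA had been sequenced in 9 libraries, 3 for every group. Per the study's methods, the file headers and the submitters' notes, the authors trimmed the reads, aligned them to GRCm38 with STAR 2.6.1b and counted them over exons with featureCounts 1.6.2 and Ensembl 89 gene models; the deposited values are raw counts per gene. Strand was not used in counting, and no exon base of a member was shared with another gene model. Methylation files hold no gene and were not used here.

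Symbols were given to 51633 of 51912 genes. TMM scaling and testing used edgeR 4.0.16 under R 4.3.3. RPKM was computed from the scaled sizes and the file's exon lengths, and raw counts entered edgeR's quasi-likelihood F-test, with each fit on its 2 groups and Benjamini-Hochberg adjustment. SE is the absolute log2 fold change over the square root of F. Levels were correlated after adding 0.5 CPM. On simulated counts for 15020 genes (NP against ESC), 61% of the 4-fold and 0% of the 2-fold changes were called. For 14050 genes (TET TKO against ESC) the shares were 69% and 0%, with 0 unchanged genes called in each. A 2-fold change lies under the 3-fold limit for a call, so the 0% says little of the test itself. Of the 2-fold changes, 7% (NP against ESC) and 10% (TET TKO against ESC) had an adjusted p under 0.001. The study's RPKM filter was read as at least 1 RPKM in at least 1 library. Ratios at low counts have exact binomial intervals, which cover counting error only.

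Members, lists and tests were chosen with earlier results of these data known. Besides the members, named genes are the 4 called genes of each list with the largest changes, genes sharing a member's role, Tet genes and the 2 genes most like each member, apart from 2 listed genes that count in the lists but are not reported here by name; the remaining calls of the pathway list, Stra8, Cdx1 and the genes with a promoter repeat were named after their values were seen. Alternatives were library sizes alone, DESeq2 1.42.0, no filter, at least 10 counts in every library, a joint fit of the 3 groups, a block for replicate number, each library left out, thinning of TET TKO counts, other limits for calls, and CPM in place of RPKM. Promoters came from RefSeq (GRCm38.p6), and figures were drawn with matplotlib.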

Additional observations from a re-analysis of the deposited data

How the results depend on the processing

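The 7 members called higher in NPs kept that direction under all alternatives that tested them, and Rarg stayed lower. Asking for at least 10 counts in every library left 5 members, 6 other pathway genes and 6 targets called in NPs (from 8, 10 and 14), since genes nearly absent from ESCs were then no longer tested. With an adjusted p under 0.05 and no limit on the fold, 18 pathway genes and 9656 of all genes were called in NPs, against 3365, and no filter gave 5281. In TET TKO ESCs, the same looser limit called 1 member, 4 pathway genes, 2 targets and 4720 of all genes, against 302; DESeq2 called 1 target and 930 genes, no filter gave 1263, and leaving out 1 library gave 47 to 300, for causes that were not tested. With TET TKO counts thinned to the depth of ESCs, 0 members and 269 of all genes were called. With 1 library left out, the log2 fold change between TET TKO ESCs and ESCs was -0.60 (without TET TKO replicate 1) to 0.063 (without TET TKO replicate 3) for Rara, and -0.41 (without TET TKO replicate 1) to 0.21 (without TET TKO replicate 2) for Crabp1, with 0.16 without ESC replicate 3. Same-numbered libraries did not deviate together in every pair (correlations of -0.0732, 0.00578 and -0.175 for NPs and ESCs, and of -0.123, 0.449 and 0.275 for TET TKO ESCs and ESCs), and not every library correlated best with its own number. The replicate number as a block gave 8 members in NPs, 0 in TET TKO ESCs, and 3316 and 600 of all genes. With it, Rarg in TET TKO ESCs had a log2 fold change of -1.22 and an adjusted p of 0.00966, still no call, against 0.195 without it and 0.0744 to 0.374 under its other alternatives, and Ttr was not called in NPs. Without the division by length (CPM), Cyp26a1 made up 32.8% in place of 57.9% of the Cyp26 sum in NPs and Rarb 48.0% in place of 56.8% of the receptor sum. Since a call needs a 3-fold change and an adjusted p under 0.001, a member without a call may still differ. The difference may be under 3-fold, or above it where the interval reaches that far, as for Rarg and Cyp26a1 in TET TKO ESCs.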

Other observations

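The direct repeat with 5 bases between half-sites, seen ahead of Rarb and Cyp26a1, was present in 31 genes of the promoter table. Besides these members, 4 of the genes were tested between NPs and ESCs and 2 were called higher. These were Ppbp, a platelet chemokine (log2 fold change 5.81, adjusted p = 0.000237), and Syndig1, a synapse protein (1.88, adjusted p = 0.000327), while Blvrb (-0.24) and Gm14133 (1.002) were not called. These genes were looked at after the members' promoters were known, the numbers are small, and no relation between the repeat and expression was tested.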
